A study of Homo sapiens with 10 samples.

Results

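Neurospheres of ReNcell VM that differentiated under a phthalate mixture were compared with vehicle-treated neurospheres across all genes of one table of read counts. ReNcell VM is an immortalised human neural progenitor line, so all results come from 1 line. The 2 Mix libraries received the mixture labelled 100 µM and the 2 vehicle libraries received 0.1% DMSO, out of 10 libraries in the series. The other 6 libraries, 2 each of DEP, DProP and DPP at 100 µM, gave the spread to the fit and are used for 1 further comparison. All groups shared the same culture: 8000 cells per well formed a sphere over 4 days, spheres were moved to laminin-coated wells in medium with N-2 supplement for 6 days, and medium and test substance were renewed every 2 days. Each library pooled the RNA of 6 neurospheres. What Mix consists of, whether 100 µM is its total or the level of each part, and what DProP and DPP stand for are not in the labels. Nothing says that the libraries within a group are of different cultures, and p-values therefore cover only how these libraries varied, which may be technical.

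Phthalate esters are plasticisers and solvents, and some of them are studied as endocrine disruptors and for effects on brain development. A neurosphere is a ball of neural progenitors. When growth factors are withdrawn on laminin, its cells migrate out and become neurons and glia, losing progenitor genes and gaining markers of the new cell types. The question of the comparison, as far as the labels state it, is how the mixture changes transcript levels during this process.

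Mix libraries held 72973100 and 61682236 counts, against 69697714 and 60695361 counts in vehicle libraries. Enough counts for a test were found for 19465 of 46427 listed genes. Levels are given as CPM (counts scaled to library depth with TMM factors), and each log2 fold change is Mix over vehicle with its standard error from edgeR's quasi-likelihood test, with p-values adjusted by Benjamini and Hochberg over all 19465 genes at a threshold of 0.05. From the estimate to either bound, the 95% interval was 0.262 (log2) in the median gene.

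In several RNA classes the 2 vehicle libraries differed from all 8 treated ones. The 13 mitochondrially encoded mRNAs took 0.0996% and 0.0969% of counts in Mix libraries, against 0.0255% and 0.0343% in vehicle libraries. MALAT1 took 0.344% and 0.348% of counts in Mix, against 1.25% and 0.947% in vehicle. A count above 0 was found for 23371 and 22905 genes in Mix, against 21603 and 21500 genes in vehicle. No batch is labelled, and if vehicle cultures or libraries were handled as a batch of their own, its effect and that of Mix cannot be told apart. In pooled spheres, fewer cells of a type and less RNA per cell cannot be told apart either.

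Between Mix and vehicle 3970 genes differed (20.4% of those tested): 1891 (9.71%) rose and 2079 (10.7%) fell. For every one of them both Mix libraries lay beyond both vehicle libraries, as they did, whether the gene passed or not, above for 32.0% and below for 28.7% of all tested genes. Most changes were small, since 620 genes (3.19%) rose and 190 genes (0.976%) fell by at least 2-fold. Among protein-coding genes with at least 5 CPM on average, 25 rose and 47 fell by that much. The scaling decides the balance of directions: with library size alone 4605 genes rose and 1020 fell, and the median of all genes moved by 0.142 from 0.0167 to 0.159 on the log2 scale, so all changes below are relative to the TMM scale. List counts and medians given below for library size alone are to be read beside these 4605 and 1020 of 19465 genes and this 0.159. Counts against vehicle under other settings, here and below, can include genes that were not among these 3970. Leaving out Mix 1 left 663 higher and 906 lower genes, leaving out vehicle 1 left 1174 higher genes, and leaving out vehicle 2 left 1194 higher and 1232 lower genes.

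Among protein-coding genes with at least 5 CPM that passed the test without overlap, the 12 largest decreases ran from -2.49 to -1.48 on the log2 scale. EDNRB, the endothelin receptor B, which astrocytes carry, had 1002 and 966 CPM in Mix libraries, against 3011 and 2534 CPM in vehicle libraries. Both Mix libraries lay at about the same level, far below both vehicle libraries, and the gene fell 2.82-fold (-1.49 ± 0.09 on the log2 scale, adjusted p = 2.57e-06; gene 1910, chromosome 13, 77895487 to 77975527 of GRCh38.p14). The other 11 of the 12 largest decreases were FLG, SEMA3F, MYL9, CLDN1, TAGLN, ACTA2, CFAP100, SLIT3, CFAP45, OLFML2A and CCN2. Filaggrin (FLG) had 16.3 and 17.4 CPM in Mix libraries, against 120.1 and 69.4 CPM in vehicle libraries, and the vehicle libraries differed from each other more than the Mix libraries did. Its fold change was -2.49 ± 0.40 (adjusted p = 0.0102), a call that was lost without Mix 1 (adjusted p = 0.0819) and without Mix 2 (adjusted p = 0.0535). The tight junction gene CLDN1 had 2.06 and 2.69 CPM in Mix libraries, against 13.4 and 8.73 CPM in vehicle libraries, with a fold change of -2.22 ± 0.21 (adjusted p = 4.03e-05).

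**Figure D1:**
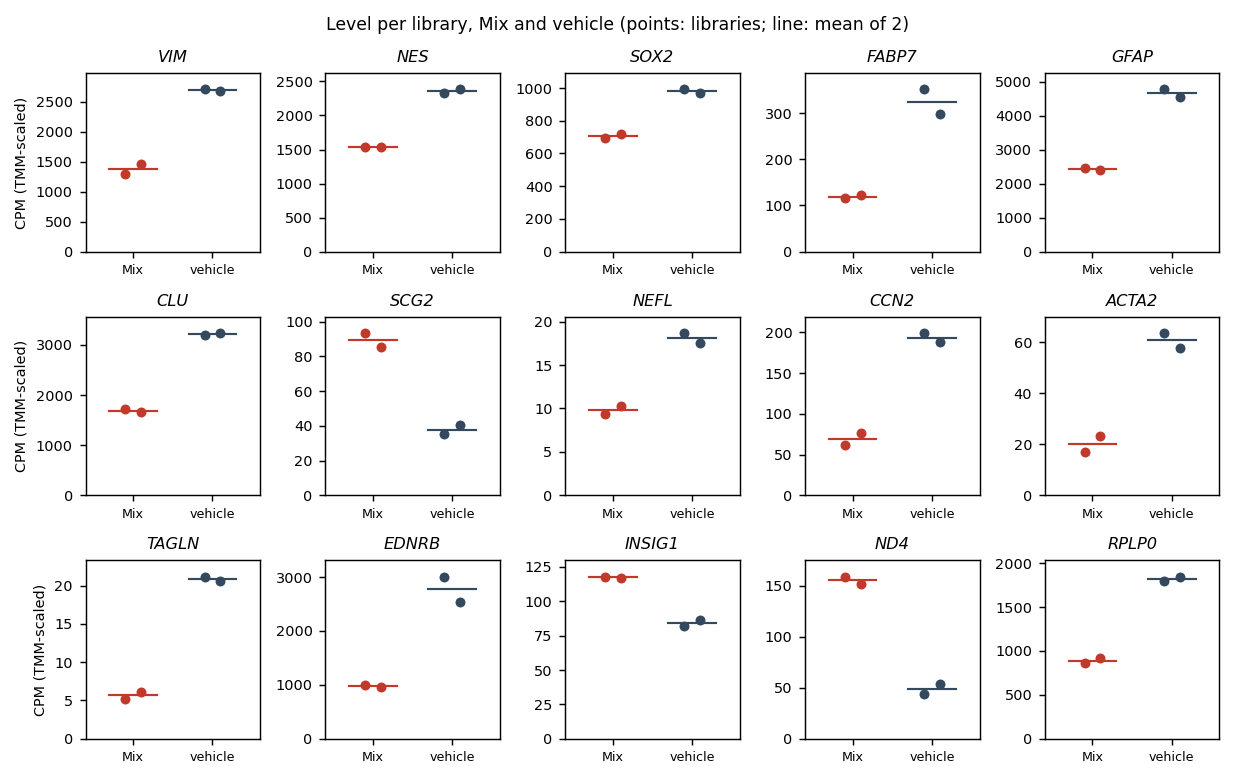
Level of 15 genes in each library as TMM-scaled CPM on a linear axis that starts at 0, with the 2 Mix libraries left of the 2 vehicle libraries. Points are libraries and lines are means of 2. VIM, NES, SOX2, FABP7, GFAP, CLU, NEFL, CCN2, ACTA2, TAGLN, EDNRB and RPLP0 were lower in both Mix libraries than in both vehicle libraries, and SCG2, INSIG1 and ND4 were higher.

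Mitochondrially encoded genes aside, the largest increase among protein-coding entries of at least 5 CPM that passed the test without overlap was in TUG1, first described as a long non-coding RNA, with 12.5 and 10.8 CPM in Mix libraries, against 2.72 and 3.78 CPM in vehicle libraries (1.84 ± 0.15, adjusted p = 1.43e-05). Secretogranin II (SCG2), a precursor of neuropeptides stored in dense-core vesicles, had 93.6 and 85.7 CPM in Mix libraries, against 35.4 and 40.4 CPM in vehicle libraries. It rose 2.37-fold (1.24 ± 0.09, adjusted p = 9.65e-06; gene 7857, chromosome 2, 223596940 to 223602361). SERINC5, a membrane protein gene, had 8.08 and 8.33 CPM in Mix libraries, against 2.99 and 3.12 CPM in vehicle libraries (1.43 ± 0.14). The matrix protein gene FREM1 (1.13 ± 0.20), the kainate receptor gene GRIK1 (1.08 ± 0.20), the secreted phosphoprotein gene SPP1 (1.05 ± 0.16), METTL7B (1.02 ± 0.12) and the hedgehog-binding protein gene HHIP (1.01 ± 0.15) also rose. In each of these genes both Mix libraries lay above both vehicle libraries, as the choice of genes required.

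More progenitor genes fell than rose in Mix. Of the 18 tested, 14 were in the quartile of protein-coding genes with the highest level per length. In that quartile 29.7% of genes fell and 4.94% rose. Of 18 tested progenitor markers 10 fell and 1 rose (median -0.28, against 0.0167 for all genes), and the number that fell was 6 without Mix 1 and 5 with library size alone. Vimentin (VIM), the intermediate filament of radial glia, had 1296 and 1466 CPM in Mix libraries, against 2702 and 2678 CPM in vehicle libraries. The libraries of a group differed little beside the gap between the groups, and VIM fell by 1.95-fold (-0.96 ± 0.07, adjusted p = 8.59e-06). Nestin (NES), a filament of neural stem cells, had 1540.5 and 1532 CPM in Mix libraries, against 2333 and 2382 CPM in vehicle libraries (-0.62 ± 0.06, adjusted p = 3.56e-05). FABP7, a fatty acid-binding protein of radial glia, had 115 and 123 CPM in Mix libraries, against 351 and 298 CPM in vehicle libraries (-1.45 ± 0.12, adjusted p = 3.04e-05). The stem cell factor SOX2 had 693 and 716 CPM in Mix libraries, against 991 and 970.1 CPM in vehicle libraries (-0.48 ± 0.06, adjusted p = 0.000466), and SOX21 stood at -0.37 ± 0.06. The related factor gene SOX3 went the other way, with 10.5 and 11.1 CPM in Mix libraries, against 4.66 and 5.55 CPM in vehicle libraries (1.08 ± 0.16, adjusted p = 0.000907).

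Proneural and neuronal genes were mixed. Of 19 tested proneural factors 5 fell and 1 rose (median -0.25), and 3 fell without Mix 1 or without vehicle 1. SOX4, SOX11 and POU3F2, factors of newly born neurons, were among those that fell, at -0.46 ± 0.06, -0.46 ± 0.08 and -0.48 ± 0.07. SOX11 had 684 and 685 CPM in Mix libraries, against 1000.3 and 878 CPM in vehicle libraries, without overlap. NEUROD1, which drives neuronal differentiation, did not pass the test: it had 13.5 and 12.6 CPM in Mix libraries, against 14.1 and 11.8 CPM in vehicle libraries (0.01 ± 0.15, adjusted p = 0.979), and its Mix libraries lay between the vehicle libraries. Of 31 neuronal structure genes 7 fell and 4 rose (median -0.30), but without Mix 1 only 1 fell and 2 rose, 4 fell without vehicle 1, and 4 fell and 2 rose without vehicle 2. The light neurofilament gene NEFL had 9.42 and 10.3 CPM in Mix libraries, against 18.7 and 17.6 CPM in vehicle libraries and fell (-0.88 ± 0.10, adjusted p = 0.000148). The calls of ELAVL3, a neuronal RNA-binding protein (-0.65 ± 0.13, adjusted p = 0.0056), and of the internexin gene INA (-0.41 ± 0.08, adjusted p = 0.00546) were lost without Mix 1 (adjusted p = 0.0575 and 0.0648). The AMPA receptor subunit gene GRIA2 rose (0.47 ± 0.07, adjusted p = 0.00111), and so did SCG2. Doublecortin (DCX), the microtubule-associated protein of migrating neurons, had 166 and 159 CPM in Mix libraries, against 181 and 173 CPM in vehicle libraries (-0.12 ± 0.13, adjusted p = 0.559), and MAP2 of dendrites had a fold change of -0.14 ± 0.06 (adjusted p = 0.118). Neither passed the test, and with library size alone the fold changes of both were slightly above 0 (0.02 and 0.0019). After correction for GC and length MAP2 passed the test as lower (adjusted p = 0.0022). Of 38 synaptic genes 5 rose and 5 fell (13.2% each, against 9.71% and 10.7% of all tested genes), with the AMPA receptor subunit gene GRIA1 at -0.52 ± 0.07. With library size alone 9 rose and 3 fell. Without Mix 1 the numbers higher and lower were 1 and 2, without Mix 2 they were 3 and 5, without vehicle 1 they were 3 and 2, and without vehicle 2 they were 3 and 3.

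Among the astrocyte genes that passed the test most were lower. Of the 22 tested, 16 were in the quartile of protein-coding genes with the highest level per length, where 29.7% fell. Of 22 tested astrocyte markers 9 fell and 2 rose (median -0.29), and the number that rose was 1 without Mix 1 or vehicle 1, 3 without Mix 2 and 0 without vehicle 2. GFAP, the intermediate filament of astrocytes, had 2459 and 2394 CPM in Mix libraries, against 4769 and 4549.5 CPM in vehicle libraries (-0.94 ± 0.08, adjusted p = 1.65e-05). Clusterin (CLU), a secreted chaperone, had 1714 and 1664 CPM in Mix libraries, against 3197 and 3238 CPM in vehicle libraries (-0.93 ± 0.06, adjusted p = 2.57e-06). Both were at about the same level in the 2 libraries of a group. The gap junction gene GJA1 (-0.56 ± 0.06), the matricellular gene SPARCL1 (-0.55 ± 0.07) and MLC1, a membrane protein of astrocyte end feet (-0.45 ± 0.07), fell with them. The water channel gene AQP4 did not pass the test: it had 573 and 337 CPM in Mix libraries, against 432 and 408 CPM in vehicle libraries, and the Mix libraries lay on either side of the vehicle libraries. Its fold change was 0.12 ± 0.24 (adjusted p = 0.784), -0.32 without Mix 1 and past the threshold without Mix 2 (adjusted p = 0.0238). Of 13 oligodendrocyte lineage genes 2 fell and 1 rose (15.4% and 7.69%, against 10.7% and 9.71% of all tested genes). Fewer fell without Mix 1, Mix 2 or vehicle 2. The platelet-derived growth factor receptor gene PDGFRA of oligodendrocyte precursors had 2.61 and 2.42 CPM in Mix libraries, against 1.49 and 1.22 CPM in vehicle libraries (0.89 ± 0.25, adjusted p = 0.027), a call that was lost without any 1 of the 4 libraries (adjusted p from 0.0562 to 0.140), with DESeq2 (adjusted p = 0.0564) and after correction for GC and length (adjusted p = 0.0516). Of 41 cell cycle and replication genes none fell and 1, the cyclin gene CCND2, was called higher (1.13 ± 0.30, adjusted p = 0.0446), a call that was lost without any 1 of the 4 libraries (adjusted p from 0.0978 to 0.183) and under 6 of the other settings (adjusted p from 0.0519 to 0.0851). The proliferation marker MKI67 had 25.8 and 32.4 CPM in Mix libraries, against 37.2 and 34.5 CPM in vehicle libraries (-0.30 ± 0.48, adjusted p = 0.717).

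Markers of microglia and endothelium were scarce, and those of ependyma were not. Of 12 microglia and macrophage markers 2 had enough counts for a test and neither passed, with 0 counts for PTPRC, AIF1 and ITGAM in all 4 libraries. Of 9 tested endothelial markers none passed with edgeR, while 2 were lower with limma-voom, 2 with edgeR on the compared groups alone and 1 with DESeq2, and PECAM1 had 0 counts. Their summed level was 33.0 and 31.5 CPM in Mix libraries, against 51.5 and 55.6 CPM in vehicle libraries. Of 8 tested choroid plexus and ependymal markers 3 fell, but 1 when any 1 of the 4 libraries was left out, and TTR had 0 counts. They summed to 244 and 225 CPM in Mix libraries, against 329 and 362 CPM in vehicle libraries. Of 10 tested neural crest and Schwann markers 1 fell, and SOX10, a factor of both, had 0.491 and 0 CPM in Mix libraries, against 0 and 0 CPM in vehicle libraries. Of 2 tested pluripotency markers neither passed.

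**Figure D2:**
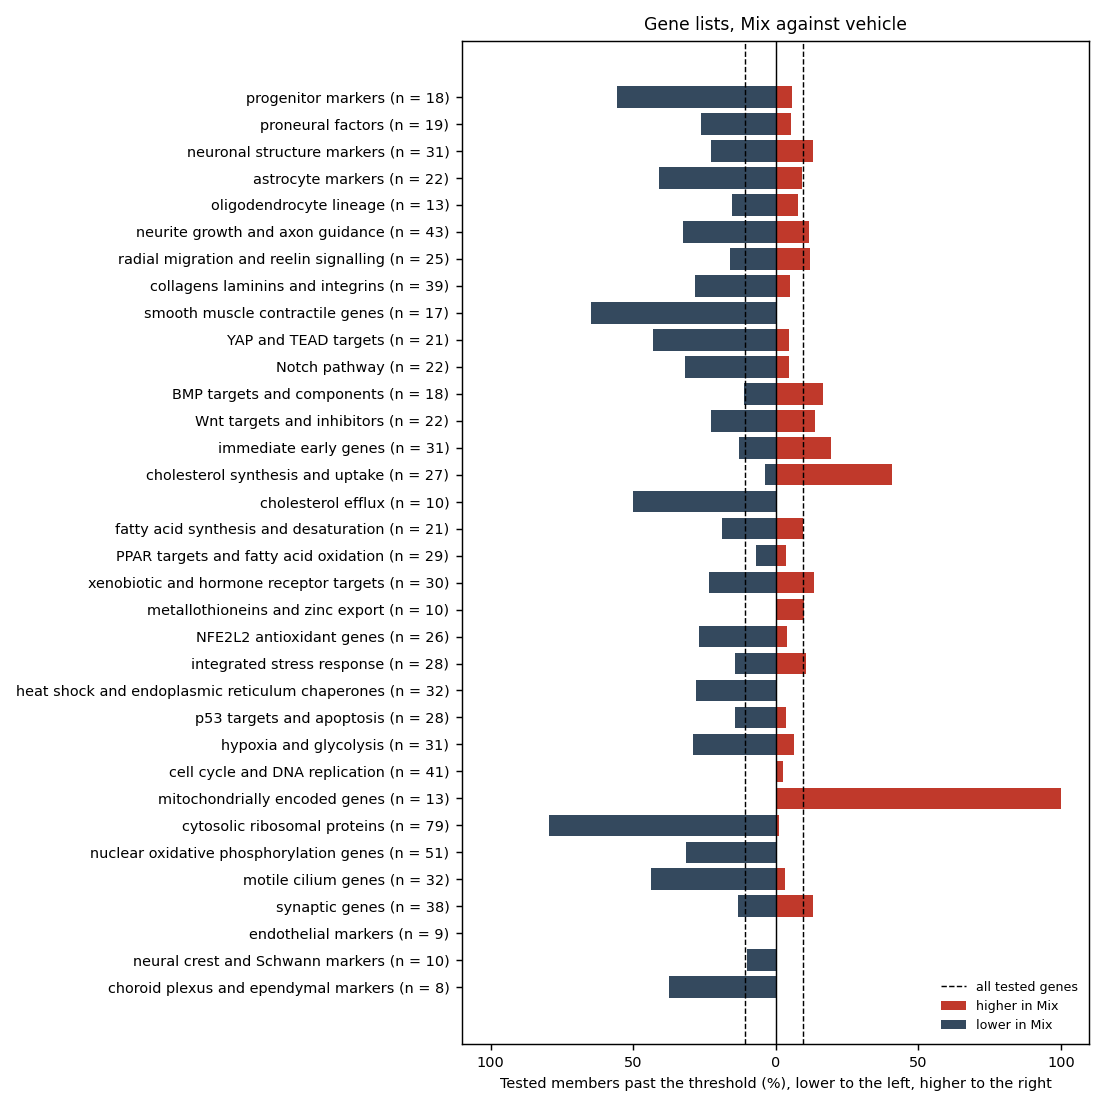
Share of the tested members of each gene list that passed the threshold, as percent, with members lower in Mix to the left and members higher in Mix to the right of 0. Dashed lines mark all tested genes (9.71% higher and 10.7% lower), and n is the number of tested members. Ribosomal protein, smooth muscle and progenitor genes have the longest bars to the left (79.7%, 64.7% and 55.6%), and mitochondrially encoded genes have the longest bar to the right (100%).

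Contractile genes and targets of YAP and TEAD gave 4 of the 12 largest decreases (MYL9, TAGLN, ACTA2 and CCN2). YAP is a coactivator that enters the nucleus of spread and tensioned cells and acts on genes through the TEAD factors, and several of these genes encode matricellular and cytoskeletal proteins. Many of the classic targets carry the TEAD motif CATTCC in their promoters, and the stretches below show it for 3 members that fell. They are the 160 bases before the transcription start on the minus strand, from RefSeq on GRCh38.p14, with CATTCC or its reverse complement in capitals.
CCN2 (chr6:131951373-131951532): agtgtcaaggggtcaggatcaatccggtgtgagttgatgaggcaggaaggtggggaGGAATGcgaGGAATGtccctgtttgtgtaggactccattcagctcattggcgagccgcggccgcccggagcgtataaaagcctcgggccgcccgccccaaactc
AMOTL2 (chr3:134374448-134374607): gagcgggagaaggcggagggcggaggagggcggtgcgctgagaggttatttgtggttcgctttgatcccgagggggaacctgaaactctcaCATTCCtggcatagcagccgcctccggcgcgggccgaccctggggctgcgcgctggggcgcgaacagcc
AJUBA (chr14:22976843-22977002): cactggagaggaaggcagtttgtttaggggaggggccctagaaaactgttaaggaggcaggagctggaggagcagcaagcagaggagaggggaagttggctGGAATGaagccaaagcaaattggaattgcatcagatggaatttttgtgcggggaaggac
In the CCN2 stretch the motif begins 104 and 95 bases before the start, and in AMOTL2 and AJUBA 69 and 59 bases before it. Counting both strands from 250 bases before the start to 50 after it, CATTCC was found in 8 of 17 list promoters (47.1%), against 1347 of 12108 promoters of tested protein-coding genes (11.1%), 168 of 1531 promoters of genes that fell and 106 of 1050 of genes that rose (10.1%). These are matches of letters and no measure of TEAD binding.

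Of 21 tested YAP and TEAD targets 9 fell and 1 rose (median -0.27), or 7 and 0 without vehicle 2. CCN2, a matricellular protein, had 61.8 and 76.8 CPM in Mix libraries, against 199 and 188 CPM in vehicle libraries and fell 2.79-fold (-1.48 ± 0.10, adjusted p = 9.10e-06). CCN1, its close relative, had 17.9 and 23.4 CPM in Mix libraries, against 56.3 and 53.2 CPM in vehicle libraries (-1.41 ± 0.12, adjusted p = 2.37e-05). Both Mix libraries of each gene stood well below both vehicle libraries, with Mix 2 above Mix 1. AMOTL2, a junction protein that binds YAP, had 19.5 and 22.6 CPM in Mix libraries, against 43.6 and 41.2 CPM in vehicle libraries (-1.01 ± 0.12, adjusted p = 0.000179). The LIM protein gene AJUBA stood at -0.87 ± 0.10, and IGFBP3, which binds insulin-like growth factors, at -1.15 ± 0.17. Of 17 tested smooth muscle contractile genes 11 fell and none rose (median -0.48), and 7 fell without Mix 1 or without vehicle 2. The myosin light chain gene MYL9 had 3.77 and 6.31 CPM in Mix libraries, against 25.5 and 22.0 CPM in vehicle libraries (-2.24 ± 0.27, adjusted p = 0.000466). Transgelin (TAGLN), an actin-binding protein, had 5.19 and 6.17 CPM in Mix libraries, against 21.2 and 20.6 CPM in vehicle libraries (-1.88 ± 0.13, adjusted p = 6.11e-06), and smooth muscle actin (ACTA2) had 16.8 and 23.2 CPM in Mix libraries, against 63.6 and 57.9 CPM in vehicle libraries (-1.60 ± 0.13, adjusted p = 1.65e-05). None of the 3 overlapped between the groups, as the choice of genes required, and the tropomyosin gene TPM1 stood at -0.83 ± 0.10. Desmin (DES), a muscle filament, had 0 counts in all 4 libraries.

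Among matrix, adhesion and guidance genes more fell than rose. Of 39 collagen, laminin and integrin genes 17, and of 43 neurite and axon guidance genes 20, were in the quartile with the highest level per length. In that quartile of protein-coding genes 29.7% fell and 4.94% rose, and in the lists 28.2% and 32.6% fell. Of 39 collagen, laminin and integrin genes 11 fell and 2 rose (median -0.21), and none rose without Mix 1. SPARC, a collagen-binding matricellular protein, had 1104 and 1120.0 CPM in Mix libraries, against 1948 and 1978 CPM in vehicle libraries (-0.82 ± 0.05, adjusted p = 4.62e-06). The integrin genes ITGB8 (-0.69 ± 0.08) and ITGB1 (-0.39 ± 0.06), which encode receptors for the matrix, and the laminin gene LAMB2 (-0.38 ± 0.06) fell as well. Nidogen 2 (NID2), a basement membrane protein, was low throughout, with 0.232 and 0.207 CPM in Mix libraries, against 2.46 and 2.45 CPM in vehicle libraries (-3.47 ± 0.36, adjusted p = 7.50e-05). Of 43 neurite and axon guidance genes 14 fell and 5 rose (median -0.13, against 0.0167 for all genes). With library size alone 6 fell and 8 rose (median 0.0151, against 0.159 for all genes). Fewer fell without Mix 1, vehicle 1 or vehicle 2. The number that rose was 3 without Mix 1, without Mix 2 or without vehicle 2, and 2 without vehicle 1. The repulsive guidance cues SLIT3 and SEMA3F had the deepest falls of this group: SLIT3 had 5.31 and 7.6 CPM in Mix libraries, against 21.5 and 16.4 CPM in vehicle libraries (-1.56 ± 0.17, adjusted p = 0.000142), and SEMA3F had 1.31 and 2.93 CPM in Mix libraries, against 11.3 and 9.11 CPM in vehicle libraries (-2.28 ± 0.39, adjusted p = 0.00444). DPYSL2, a collapsin response mediator (-0.66 ± 0.06), MAP1B of growing axons (-0.51 ± 0.07) and netrin 1 (NTN1, -0.54 ± 0.07) fell by less, while the ephrin receptor gene EPHB1 rose (0.42 ± 0.08). Of 25 migration and reelin pathway genes 4 fell and 3 rose. The number that rose was 1 without Mix 1 or without vehicle 1, and 12 with library size alone. The brain proteoglycan genes CSPG5 (-0.59 ± 0.07) and BCAN (-0.51 ± 0.09) and filamin A (FLNA, -0.46 ± 0.06), which links actin filaments, fell. ASTN1, a receptor for migration along glia, had 57.3 and 43.1 CPM in Mix libraries, against 25.4 and 28.2 CPM in vehicle libraries and rose (0.91 ± 0.13, adjusted p = 0.000667).

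Signalling genes moved member by member. Of 22 Notch pathway genes 7 fell and 1 rose (median -0.16), and 2 fell and 0 rose without Mix 1. The receptor gene NOTCH1 had 757 and 773 CPM in Mix libraries, against 1030.2 and 1064 CPM in vehicle libraries (-0.45 ± 0.06, adjusted p = 0.000372), and HES4, a repressor of the HES family, stood at -0.85 ± 0.12. Inhibitors of the ID family, which hold back basic helix-loop-helix factors, went in both directions: the abundant ID4 had 522 and 522 CPM in Mix libraries, against 1092 and 952 CPM in vehicle libraries and fell (-0.97 ± 0.07, adjusted p = 8.58e-06), while the scarce ID1 had 1.88 and 3.2 CPM in Mix libraries, against 0.689 and 1.21 CPM in vehicle libraries and rose (1.43 ± 0.28, adjusted p = 0.00516). Of 18 BMP targets and components 2 fell and 3 rose (2 and 6 with library size alone), and of 22 Wnt targets and inhibitors 5 fell and 3 rose (4 and 5 with library size alone). The shares lower and higher were 11.1% and 16.7% for BMP and 22.7% and 13.6% for Wnt, against 10.7% and 9.71% of all tested genes. The secreted Wnt modulators DKK3 (-0.66 ± 0.07) and SFRP1 (0.62 ± 0.08) likewise moved in opposite directions. Of 31 immediate early genes, which respond within minutes to stimuli, 6 rose and 4 fell, or 10 and 3 with library size alone. In shares, 19.4% rose and 12.9% fell, against 9.71% and 10.7% of all tested genes. None fell without Mix 1, and 2 fell without vehicle 2 and after correction for GC and length. EGR1 had 234 and 286 CPM in Mix libraries, against 139.7 and 162 CPM in vehicle libraries (0.79 ± 0.14, adjusted p = 0.00534), and JUNB (0.89 ± 0.14), EGR2 (0.93 ± 0.16) and FOS (0.52 ± 0.10) rose with it.

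Most genes of cholesterol synthesis that changed were higher in Mix, and the genes of its export that changed were lower. Cells make cholesterol through the mevalonate pathway under the factor SREBP2, and export it through ABCA1 and apolipoprotein E, whose genes answer to the liver X receptors. Of 27 synthesis and uptake genes 11 rose and 1 fell (median 0.11), and 6 rose without Mix 1, 7 without vehicle 1 and 7 without vehicle 2. INSIG1, the sterol sensor that holds SREBP2 back, had 118 and 117 CPM in Mix libraries, against 82.3 and 86.1 CPM in vehicle libraries (0.48 ± 0.06, adjusted p = 0.000206). The increase was 1.39-fold, and the libraries of each group lay close together. FDPS of the mevalonate branch (0.46 ± 0.08) and the sterol reductase gene DHCR7 (0.47 ± 0.08) rose by as much, while the phosphomevalonate kinase gene PMVK fell (-0.54 ± 0.08). Of 10 cholesterol efflux genes 5 fell and none rose (median -0.37), and 3 fell without Mix 1, 3 without vehicle 1 and 2 without vehicle 2. ABCA1 had 677 and 629 CPM in Mix libraries, against 986 and 871 CPM in vehicle libraries (-0.51 ± 0.07, adjusted p = 0.000729), and PLTP, a phospholipid transfer protein, stood at -0.44 ± 0.06. Apolipoprotein E (APOE) had 389.9 and 313 CPM in Mix libraries, against 663 and 723 CPM in vehicle libraries (-0.98 ± 0.17, adjusted p = 0.00772), a call that was lost without vehicle 2 (adjusted p = 0.0522) and after correction for GC and length (adjusted p = 0.0638). Of 21 fatty acid synthesis and desaturation genes 4 fell and 2 rose, or 2 and 9 with library size alone. In shares, 19.0% fell and 9.52% rose, against 10.7% and 9.71% of all tested genes. The desaturase gene SCD fell (-0.50 ± 0.08, adjusted p = 0.0013).

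In each of the receptor and stress lists most members did not pass the test. Of 29 PPAR targets and oxidation genes, a set often examined for phthalates, 2 fell and 1 rose (6.9% and 3.45%, against 10.7% and 9.71% of all tested genes). The number that fell was 5 with DESeq2 and 4 with the compared groups alone or after correction for GC and length, and the number that rose was 4 with library size alone and 0 without Mix 1, vehicle 1 or vehicle 2. Here FABP7, which is also a progenitor marker, was 1 of those that fell. Of 30 genes that answer to xenobiotic and hormone receptors 7 fell and 4 rose (23.3% and 13.3%, against 10.7% and 9.71% of all tested genes). Without Mix 1 the counts were 2 and 2, without Mix 2 3 and 2, without vehicle 1 3 and 3, and without vehicle 2 1 and 3. With library size alone 1 fell and 4 rose. CYP1B1, a target of the aryl hydrocarbon receptor, had 1.34 and 1.75 CPM in Mix libraries, against 4.66 and 4.2 CPM in vehicle libraries and fell (-1.52 ± 0.18, adjusted p = 0.000207), while SGK1, a glucocorticoid-responsive kinase gene, had 2.8 and 3.31 CPM in Mix libraries, against 1.19 and 1.84 CPM in vehicle libraries and rose (1.02 ± 0.20, adjusted p = 0.00472). Of 26 NFE2L2 antioxidant genes 7 fell and 1 rose (median -0.12, or 0.0047 with library size alone). The ferritin heavy chain gene FTH1 of iron storage had 309 and 365 CPM in Mix libraries, against 826 and 924 CPM in vehicle libraries (-1.38 ± 0.10, adjusted p = 9.83e-06), and its partner FTL (-0.52 ± 0.06) and the transketolase gene TKT (-0.50 ± 0.06) fell by less. Ferritin genes have many processed pseudogenes, which the counting may have split reads with. Of 32 chaperone genes 9 fell and none rose (median -0.13, or 0.0123 with library size alone), among them HSPA8 (-0.70 ± 0.06) and calnexin (CANX, -0.59 ± 0.06). Of 28 integrated stress response genes 4 fell and 3 rose, with the factor gene ATF4 at -0.41 ± 0.06. These shares were 14.3% and 10.7%, against 10.7% and 9.71% of all tested genes. Without Mix 1 the number that fell was 2, and without vehicle 2 the number that rose was 1. With library size alone 3 fell and 8 rose. Of 28 p53 targets 4 fell and 1 rose (14.3% and 3.57%, against 10.7% and 9.71% of all tested genes), with CCNG1 at -0.40 ± 0.06. Fewer passed without Mix 1, and with library size alone the numbers were 3 and 8. The CDK inhibitor gene CDKN1A had 119 and 128 CPM in Mix libraries, against 111 and 112 CPM in vehicle libraries (0.15 ± 0.06, adjusted p = 0.0894) and did not pass the test, although it did with library size alone (adjusted p = 0.00432) and after correction for GC and length (adjusted p = 0.00349). Of 31 hypoxia and glycolysis genes 9 fell and 2 rose, or 1 without Mix 1 or vehicle 2 (median -0.02), with GAPDH (-0.57 ± 0.07) and ALDOA (-0.45 ± 0.06) lower and the hexokinase gene HK2 (0.54 ± 0.10) higher. With library size alone 6 fell and 10 rose (median 0.12, against 0.159 for all genes). Of 10 metallothionein and zinc export genes 1 rose and none fell. The metallothionein gene MT2A had 81.0 and 105 CPM in Mix libraries, against 69.1 and 92.9 CPM in vehicle libraries with overlapping groups (0.20 ± 0.18, adjusted p = 0.475).

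Transcripts of the mitochondrial genome rose as a group, and those of cytosolic ribosomal proteins fell. All 13 mitochondrially encoded mRNAs were higher in Mix (median 1.63), also without any 1 of the 4 libraries. ND4, a subunit of complex I, had 159 and 152 CPM in Mix libraries, against 44.4 and 53.6 CPM in vehicle libraries (1.67 ± 0.11, adjusted p = 9.65e-06), and ND6, encoded on the other strand, had 12.2 and 10.4 CPM in Mix libraries, against 2.43 and 3.4 CPM in vehicle libraries (1.96 ± 0.16). The vehicle libraries were the low ones in both. Of 51 nuclear genes of oxidative phosphorylation 16 fell and none rose (median -0.14, or 0.0051 with library size alone), and 10 fell without Mix 1 or without vehicle 2. UQCRB of complex III (-0.80 ± 0.06) and NDUFB5 of complex I (-0.63 ± 0.06) were among them. Of the 51 genes 33 were in the quartile of protein-coding genes with the highest level per length. In that quartile 29.7% of genes fell, near the 31.4% of this list. Of 79 ribosomal protein genes 63 fell and 1 rose (median -0.51, or -0.37 with library size alone and -0.48 with the GC and length correction). RPLP0 of the ribosomal stalk had 867 and 915 CPM in Mix libraries, against 1798 and 1848 CPM in vehicle libraries (-1.03 ± 0.07, adjusted p = 4.49e-06), and RPL38 (-1.12 ± 0.06) and RPS6 (-0.94 ± 0.06) fell by as much. RPL12, the only one higher, had 20.9 and 19.7 CPM in Mix libraries, against 12.5 and 14.6 CPM in vehicle libraries (0.59 ± 0.10, adjusted p = 0.00163). Ribosomal protein genes have many near-identical pseudogenes, so their single values are uncertain.

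Decreases were frequent among abundant genes. Of the 50 protein-coding genes with the highest level per length, 50 fell, and of the highest 200 genes 175 fell and none rose (median -0.48, -0.34 with library size alone and -0.41 with the GC and length correction). Of the 79 ribosomal protein genes 67 belonged to the highest quartile by level per length, in which 29.7% of genes fell and 4.94% rose. So did 14 of 18 progenitor markers, 16 of 22 astrocyte markers and 14 of 22 Notch pathway genes. The same quartile held 33 of 51 nuclear oxidative phosphorylation genes and 19 of 32 chaperone genes. It also held 18 of 26 NFE2L2 antioxidant genes and 17 of 31 hypoxia and glycolysis genes. Of 43 neurite and axon guidance genes it held 20, and of 39 collagen, laminin and integrin genes 17. In the lowest quartile 4.10% fell and 4.89% rose. GC content moved with the calls as well: in the quartile of transcripts richest in GC 26.0% fell and 1.49% rose, against 6.90% and 12.4% in the poorest quartile. The shortest quartile of transcripts had 15.8% lower and 4.56% higher, against 9.92% lower and 14.3% higher in the longest. The part of level, GC content and length in the single calls was not tested beyond the GC and length correction, which gave 1521 higher and 1777 lower genes. Of these, 1283 and 1328 were also called without the correction, and the others were new calls.

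**Figure D3:**
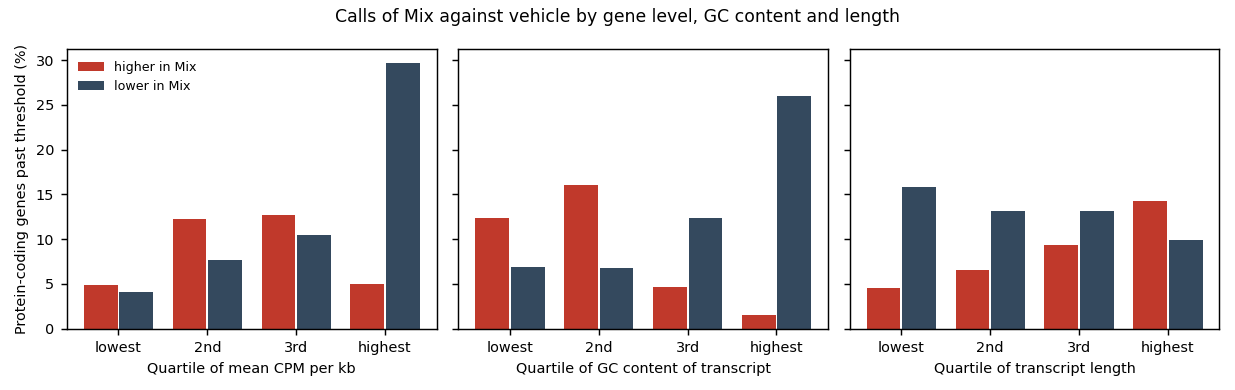
Percent of tested protein-coding genes that were higher or lower in Mix than in vehicle, by quartile of level per length (left), of transcript GC content (middle) and of transcript length (right). The lower genes reach 29.7% in the highest quartile of level and 26.0% in the highest quartile of GC content.

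Genes of motile cilia formed a further group that fell. Motile cilia are moved by dynein arms and line ependymal cells. Of 32 motile cilium genes 14 fell and 1 rose (median -0.45), and 6 fell without Mix 1. CFAP45, a protein inside the ciliary microtubules, had 5.13 and 7.49 CPM in Mix libraries, against 18.3 and 18.4 CPM in vehicle libraries (-1.54 ± 0.16, adjusted p = 9.11e-05). DNAI1, a dynein intermediate chain, had 6.91 and 10.4 CPM in Mix libraries, against 18.3 and 16.2 CPM in vehicle libraries (-1.0 ± 0.16, adjusted p = 0.00131), and TPPP3, a tubulin-binding protein, had 68.9 and 78.0 CPM in Mix libraries, against 153 and 163 CPM in vehicle libraries (-1.10 ± 0.15, adjusted p = 0.00162). Mix 1 was the lowest library in all 3. FOXJ1, the factor that switches on the ciliary programme, had 52.8 and 63.7 CPM in Mix libraries, against 104 and 117 CPM in vehicle libraries (-0.92 ± 0.19, adjusted p = 0.0156), and its call was lost without Mix 1 (adjusted p = 0.101) and without vehicle 2 (adjusted p = 0.0883). The choroid plexus and ependymal markers, of which FOXJ1 is 1, were lower in sum in both Mix libraries than in both vehicle libraries, and their part in the ciliary result was not tested.

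Among the long non-coding RNAs that passed the test most were higher, while MALAT1 was lower. Of 1875 tested lncRNA genes 385 rose and 16 fell (median 0.65), and of the 345 lncRNA genes with a change of at least 2-fold 341 were higher in Mix. These 345 genes summed to 3814 and 3804 CPM in Mix libraries, against 13750 and 10473 CPM in vehicle libraries. MALAT1 made up most of each sum, so the others were low on average. MIAT, a nuclear lncRNA expressed in neural progenitors, had 56.4 and 55.8 CPM in Mix libraries, against 19.0 and 20.9 CPM in vehicle libraries (1.49 ± 0.08, adjusted p = 2.57e-06). KCNQ1OT1, an imprinted antisense transcript, had 19.1 and 19.4 CPM in Mix libraries, against 6.59 and 7.35 CPM in vehicle libraries (1.46 ± 0.10, adjusted p = 6.16e-06), and MIR100HG stood at 1.47 ± 0.12. MALAT1 of nuclear speckles had 3423 and 3419.9 CPM in Mix libraries, against 13638 and 10346 CPM in vehicle libraries, and fell 3.5-fold (-1.81 ± 0.12, adjusted p = 9.10e-06). The vehicle libraries differed from each other for MALAT1 far more than the Mix libraries did, without overlap between groups. RN7SL2, an RNA of the signal recognition particle, rose (1.73 ± 0.15), and the small nucleolar RNA SNORD33, which lies within a ribosomal protein gene, fell (-2.12 ± 0.26). Whether strand was used in counting is not stated, so reads of antisense pairs, such as MALAT1 or KCNQ1OT1 and their partners, cannot be told apart. Libraries were made by exome capture, so for non-coding and mitochondrial RNA unequal capture and unequal expression cannot be told apart.

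**Figure D4:**
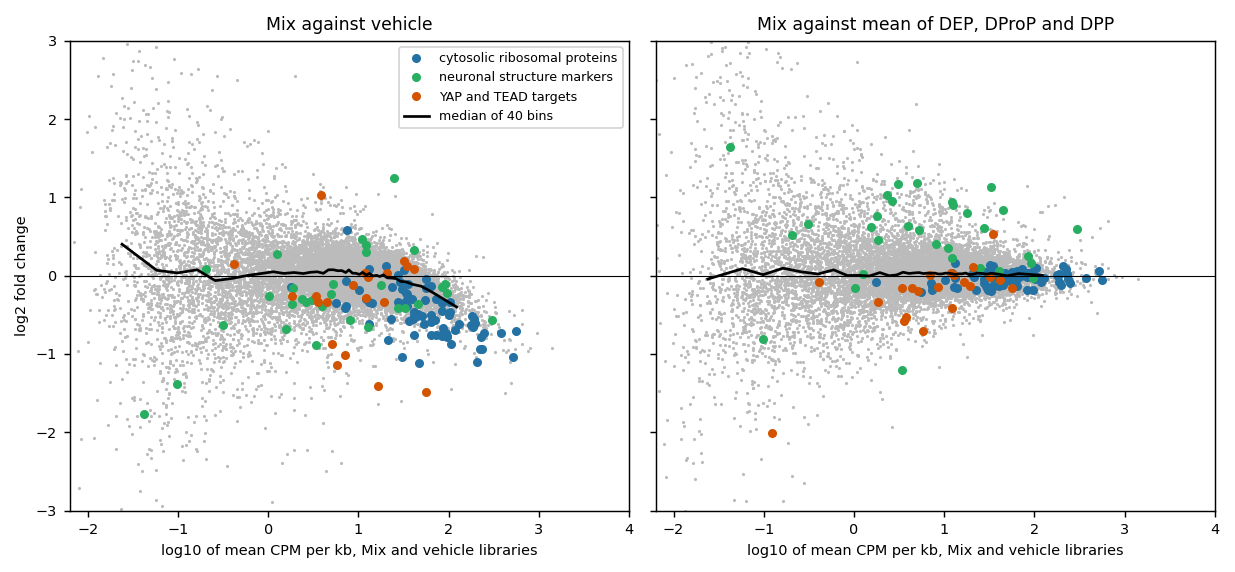
Log2 fold change against the log10 of mean CPM per kb of transcript in Mix and vehicle libraries, for protein-coding genes, with Mix against vehicle on the left and Mix against the mean of DEP, DProP and DPP on the right. Grey points are genes, coloured points are 3 gene lists and the black line is the median of 40 bins, and 146 genes on the left and 113 on the right lie beyond the vertical range of -3 to 3. On the left the line bends below 0 at high levels, where the ribosomal protein genes lie (median -0.51), whereas on the right it stays near 0 and neuronal genes lie above it (median 0.59).

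Mix was also set against the mean of the 3 single phthalates at the same labelled concentration, a comparison in which the vehicle libraries add only to the estimate of the spread. In it 1829 genes (9.4%) were higher and 912 (4.69%) lower in Mix, of which 202 (1.04%) and 95 (0.488%) differed by at least 2-fold. The counts were 699 and 202 without Mix 1 or 926 and 377 without Mix 2. Whether the gene passed or not, both Mix libraries lay above all 6 single-phthalate libraries for 14.8% and below for 11.5% of tested genes. The 6 largest increases and 6 largest decreases were chosen among genes with both Mix libraries beyond those 6. Fold changes from here on are Mix over the mean of the single phthalates. Neuronal genes were higher in Mix: 13 of 19 proneural factors (median 0.81), 20 of 31 neuronal structure genes (median 0.59) and 13 of 38 synaptic genes (median 0.26) were higher and 0, 1 and 1 lower, against a median of -0.0022 over all genes. Without Mix 1 the numbers higher were 7, 16 and 10, and without Mix 2 they were 8, 12 and 9. NEUROD1 had 13.5 and 12.6 CPM in Mix, 5.26 and 6.52 CPM in DEP, 5.38 and 4.26 CPM in DProP, 3.1 and 2.6 CPM in DPP and 14.1 and 11.8 CPM in vehicle. Both Mix libraries lay above all 6 libraries of the single phthalates and beside those of vehicle (1.59 ± 0.12, adjusted p = 1.67e-05). DCX had 166 and 159 CPM in Mix, 128 and 146 CPM in DEP, 90.0 and 87.5 CPM in DProP, 78.3 and 55.3 CPM in DPP and 181 and 173 CPM in vehicle, again with both Mix libraries above those 6 (0.80 ± 0.10, adjusted p = 0.00117). Reelin (RELN), the secreted guide of neuronal layering, had 14.2 and 16.2 CPM in Mix, 9.41 and 9.65 CPM in DEP, 8.64 and 7.94 CPM in DProP, 4.83 and 4.3 CPM in DPP and 14.9 and 13.2 CPM in vehicle (1.09 ± 0.09, adjusted p = 2.61e-05). The neuronal tubulin gene TUBB3 (0.59 ± 0.10, adjusted p = 0.00555) and ELAVL4 (1.18 ± 0.20, adjusted p = 0.00595) were higher as well, and both calls were lost without Mix 2 (adjusted p = 0.0668 and 0.0614). Against vehicle TUBB3 had 449.9 and 505 CPM in Mix libraries, against 713 and 707 CPM in vehicle libraries and fell (-0.57 ± 0.13, adjusted p = 0.0145), a call that was lost without Mix 1, vehicle 1 or vehicle 2 (adjusted p from 0.0750 to 0.111) and after correction for GC and length (adjusted p = 0.0577).

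**Figure D5:**
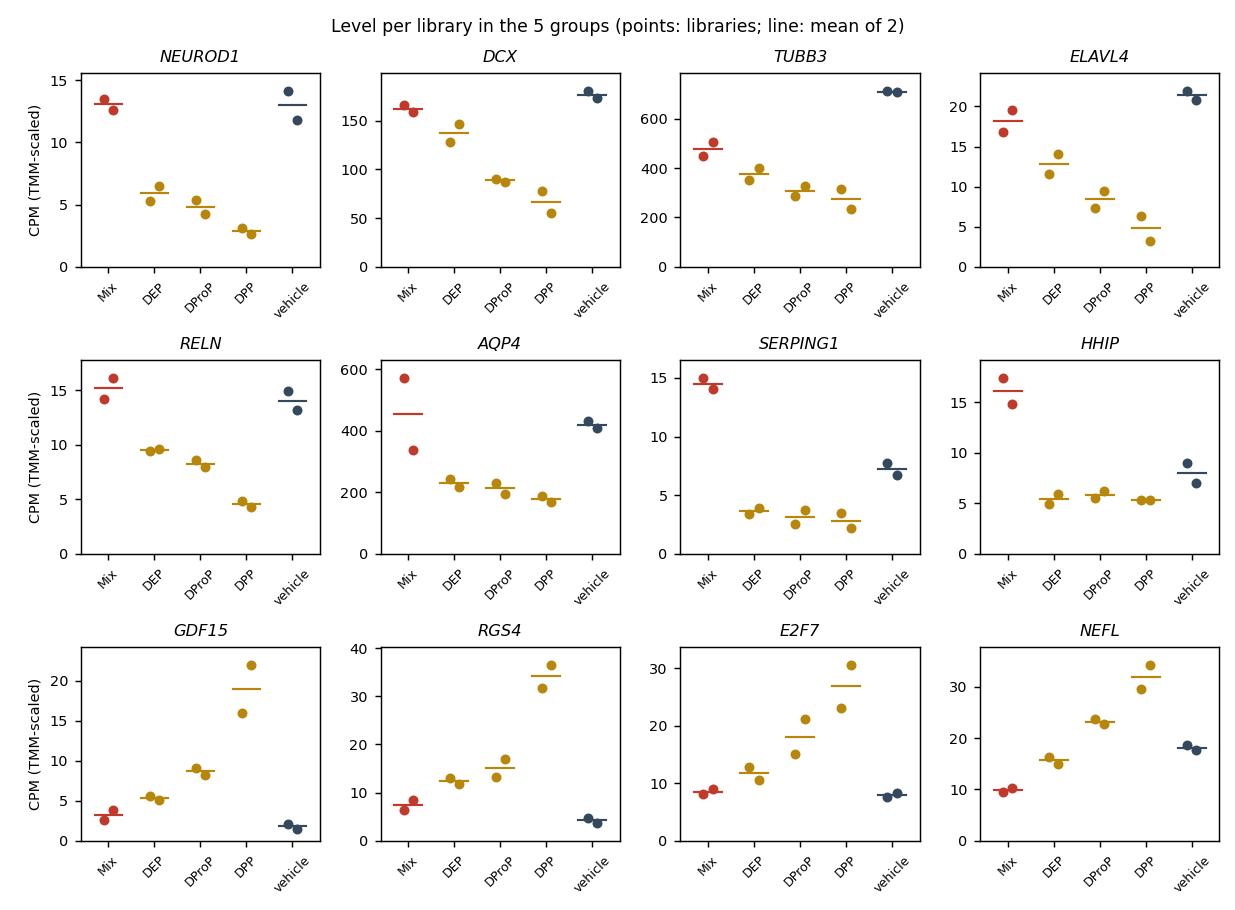
Level of 12 genes in each library of the 5 groups as TMM-scaled CPM on linear axes that start at 0, with Mix at the left, the 3 single phthalates in the middle and vehicle at the right. Points are libraries and lines are means of 2. In NEUROD1, DCX, ELAVL4 and RELN both Mix libraries lie above all libraries of the single phthalates, and in GDF15, RGS4, E2F7 and NEFL below them.

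A few genes stood outside both the single phthalates and vehicle. SERPING1, the inhibitor of complement C1, had 15.0 and 14.0 CPM in Mix, 3.36 and 3.9 CPM in DEP, 2.56 and 3.72 CPM in DProP, 3.46 and 2.18 CPM in DPP and 7.76 and 6.7 CPM in vehicle. Its Mix libraries were the highest of all 10 (2.19 ± 0.16, adjusted p = 1.67e-05). Against vehicle SERPING1 stood at 1.01 ± 0.21 (adjusted p = 0.00678), a call that was lost without Mix 1 (adjusted p = 0.0539) and without vehicle 2 (adjusted p = 0.0570). HHIP had 17.4 and 14.8 CPM in Mix, 4.97 and 5.96 CPM in DEP, 5.53 and 6.16 CPM in DProP, 5.34 and 5.3 CPM in DPP and 9.0 and 7.01 CPM in vehicle, again with both Mix libraries highest (1.54 ± 0.11, adjusted p = 1.52e-05). SOX3 was also higher in Mix than in the single phthalates (1.39 ± 0.12, adjusted p = 4.29e-05). NEFL had 9.42 and 10.3 CPM in Mix, 16.4 and 14.9 CPM in DEP, 23.7 and 22.7 CPM in DProP, 29.6 and 34.3 CPM in DPP and 18.7 and 17.6 CPM in vehicle, and its Mix libraries were the lowest of all 10 (-1.20 ± 0.09, adjusted p = 1.52e-05). APOL4 (1.42 ± 0.12) and P2RX3, a purinergic receptor gene (1.43 ± 0.14), were also higher in Mix than in the single phthalates but did not pass against vehicle (0.39 ± 0.16, adjusted p = 0.103, and -0.12 ± 0.17, adjusted p = 0.674).

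Among cell cycle genes, p53 targets and immediate early genes, those that passed were all lower in Mix than in the single phthalates. NFE2L2 antioxidant genes and hypoxia and glycolysis genes that passed were mostly lower. The integrated stress response and chaperone lists had members in both directions. Of 31 hypoxia and glycolysis genes 13 were lower and 2 higher (median -0.18). GDF15, a secreted stress cytokine, had 2.62 and 3.78 CPM in Mix, 5.55 and 5.02 CPM in DEP, 9.04 and 8.25 CPM in DProP, 15.9 and 22.0 CPM in DPP and 2.08 and 1.46 CPM in vehicle (-1.58 ± 0.19, adjusted p = 0.000338). RGS4, which shortens G protein signals (-1.33 ± 0.14), and E2F7, a repressor of the cell cycle (-1.07 ± 0.15), were lower without overlap, which the choice of the largest decreases required. Against vehicle GDF15 was called higher in Mix (0.84 ± 0.23), but not with limma-voom (adjusted p = 0.103) or the compared groups alone (adjusted p = 0.0588). RGS4 was called higher than vehicle as well (0.79 ± 0.17), a call that was lost without Mix 2 and without vehicle 2 (0.585 and 0.622). Of 41 cell cycle genes 10 were lower and none higher (median -0.44), and 3 and 4 were lower without Mix 1 and without Mix 2. Of 28 p53 targets 11 were lower and none higher, with 4 lower without Mix 1 and 7 without Mix 2, and CDKN1A stood at -0.40 ± 0.05 (adjusted p = 0.000355). Of 31 immediate early genes 11 were lower and none higher, with 4 lower without Mix 1. Of 28 integrated stress response genes 6 were lower and 4 higher (3 and 1 without Mix 1, 5 and 2 without Mix 2), and of 32 chaperone genes 4 were lower and 1 higher (0 and 0 without Mix 1, 1 and 1 without Mix 2). Of 26 NFE2L2 antioxidant genes 14 were lower and 1 higher (7 and 0 without Mix 1, 8 and 0 without Mix 2). Of 13 mitochondrially encoded genes none passed with edgeR here, and of 79 ribosomal protein genes 3 were lower, against 14.1% of all tested genes past the threshold in either direction. Of 21 YAP and TEAD targets 3 passed, of 17 smooth muscle genes 4, of 22 astrocyte markers 12 (9 of them higher) and of 18 progenitor markers 7, all higher. Without Mix 1 the numbers past the threshold were 2, 2, 7 and 5, and without Mix 2 they were 5, 2, 10 and 4. Both comparisons share the 2 Mix libraries, so they are not independent.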

How the data were processed

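RNA sequencing measured gene expression in 10 libraries of neurospheres, of which 2 Mix and 2 vehicle libraries are compared here. The authors deposited whole-number read counts per NCBI gene, with no scaling or filter applied. Per the submitters' processing notes, Trimmomatic 0.38, HISAT2 2.1.0, StringTie 2.1.3b and GRCh38 were used. The counting tool, its strand setting and its treatment of multi-mapping reads are not given here. Libraries held 57222381 to 72973100 counts.

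Counts were fitted with edgeR 4.0.16 (R 4.3.3): filterByExpr by group, TMM scaling and 1 robust quasi-likelihood model with a mean for each of the 5 groups, leaving 5 residual degrees of freedom. The common biological coefficient of variation was 9.40%. With 2 libraries a group, a lone-gene exact test cannot pass 0.05, so p-values rest on the spread pooled over groups. Counts of the libraries of a group differed by more than sampling noise (chi-square per degree of freedom from 11 to 20.6), so no library was treated as a second deposit of another, which does not show that they came from separate cultures. The standard error is the fold change divided by the square root of F. The scripts were tested on simulated data.

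The members and the 36 gene lists were chosen with earlier results of these data known. Named genes are the 12 largest increases and decreases of protein-coding genes with at least 5 CPM and no overlap, up to 6 members of each list, the 4 most abundant members that did not pass, 6 non-coding genes and, against the single phthalates, 6 genes each way. Not all of them are described, and some results are not reported here. TUBB3, ELAVL4, RELN, MKI67, SOX10 and RPL12 were named after their values were seen, as were the increases outside the mitochondrial genome. Promoters and gene positions are from RefSeq on GRCh38.p14, and 13436 tested genes matched a promoter.

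Alternatives tried were DESeq2 1.42.0, limma-voom (limma 3.58.1), scaling by relative log expression or by library size alone, dropping the filter or demanding 1 CPM in 2 libraries, the compared groups alone, a replicate block, a GC and length correction (lowess span 0.3, 86.1% of tested genes) with and without that block, protein-coding genes alone, a 2-fold minimum and leaving out each Mix or vehicle library, where the lone library is assumed to vary like the other groups.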

Additional observations from a re-analysis of the deposited data

How the results depend on the processing

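Against vehicle, 1891 genes were higher and 2079 lower. Library size alone gave 4605 and 1020, a 2-fold minimum 620 and 190, and the fit of the compared groups alone 1110 higher. Leaving out 1 library at a time gave 663 to 1351 higher and 906 to 1623 lower. Against the mean of the single phthalates, 1829 were higher and 912 lower. A 2-fold minimum gave 202 and 95, the GC and length correction 1589 lower, that correction with the replicate block 1533 lower, and leaving out 1 library 699 to 1868 higher and 202 to 962 lower. The other settings stayed within 1.5 times these counts.

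The replicate numbers carried no pairing: differences between replicates correlated at -0.0465 to 0.0471 across genes for pairs of groups. With the replicate block 1749 genes were higher and 1950 lower against vehicle, and 1703 and 849 against the single phthalates.

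With library size alone the numbers higher and lower were 4 and 6 for YAP and TEAD targets, 5 and 9 for collagen, laminin and integrin genes, 1 and 7 for smooth muscle genes, 2 and 5 for Notch genes, 5 and 0 for cell cycle genes, 3 and 7 for chaperone genes, 3 and 9 for nuclear oxidative phosphorylation genes and 0 and 3 for cholesterol efflux genes. Over all 19465 tested genes that setting gave 4605 and 1020. With the GC and length correction 3 proneural factors, 4 Notch genes and 2 efflux genes fell. Leaving out 1 library gave 1 to 2 higher and 1 to 3 lower BMP genes, 1 to 2 and 2 to 4 Wnt genes and 0 to 4 and 2 to 3 fatty acid genes.

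Some genes that did not pass against vehicle changed sign. NEUROD1 stood at -0.00654 in the compared groups alone, -0.0777 with the GC and length correction, -0.0733 with that correction and the block, and from -0.113 to 0.143 when 1 library was left out. DCX, MAP2 and P2RX3 stood at 0.0197, 0.00188 and 0.0232 with library size alone, and P2RX3 from -0.254 to 0.00323 when 1 library was left out. E2F7 stood at -0.00471 with the GC and length correction and at -0.00676 with the block added, AQP4 from -0.318 to 0.449 and MT2A from -0.00012 to 0.431 when 1 library was left out. The causes were not tested. Of 110 named genes that passed, some lost their call under an alternative other than the 2-fold minimum. The results name such settings where the call is stated, though not every one of them.

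With 2 libraries per group, the 95% interval of the median gene reached 0.262 (log2) to either side, before adjustment for multiple tests. A call after adjustment needed a larger change than that in such a gene, and smaller changes were often not detectable.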
